A study of Xenopus tropicalis with 8 samples.

Results

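The genes described here are those of the flagellum, cilium and axoneme families, taken by gene symbol alone: the cilia and flagella associated proteins (cfap), intraflagellar transport (ift), Bardet-Biedl syndrome (bbs), axonemal and cytoplasmic dynein and dynein assembly (dnah, dnai, dnal, dnaaf, dync, dynl), tektin, sperm and spermatogenesis associated (spag, spata), radial spoke (rsph), dynein regulatory (drc), tubulin tyrosine ligase like (ttll) and tubulin (tuba, tubb, tubg) symbols. Of 161 such symbols in the gene table, 37 were matched to a probe and 34 entered the test, among 3844 named genes tested in all. A gene symbol was reached for 4872 of 32899 probes, so genes without a match may still have a probe. No dnal, dynl, tekt, spag, drc or tubb gene was matched to a probe, and those families are not analysed here.

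The samples were testis tissue of juvenile male Xenopus tropicalis (also called Silurana tropicalis), a frog, cultured for 6 h at 26 °C in L-15 medium. One group of 4 arrays came from tissue given 5 µM finasteride, a drug that blocks the enzyme turning testosterone into dihydrotestosterone, and the other group of 4 from control tissue at 0 µM. The design text speaks of 8 incubations per group, and 4 arrays per group were analysed. The labels do not say whether an array held 1 animal or a pool, or whether arrays held separate animals, so the p-values reflect the variation among these arrays alone, part of which may be technical. The study asked which transcripts finasteride alters in the testis.

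A motile flagellum is built on an axoneme, a ring of doublet microtubules around a central pair. Outer and inner dynein arms slide the doublets past each other, and radial spokes and central pair projections regulate them. Intraflagellar transport carries the parts to the tip, the BBSome carries membrane proteins, and the parts of a dynein arm are assembled in the cytoplasm before they are moved. In the testis this machinery is made mainly in spermatids, the haploid germ cells that grow a tail. Not every symbol taken belongs to it: dync1li2 belongs to the cytoplasmic motor, tubgcp2 and tubgcp5 to the complex that nucleates microtubules, and spata2 and spata18 are known in mammals from signalling and mitochondrial upkeep.

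The values are levels: log2 processed intensity of a probe minus the 75th percentile of its array, so that 0 is that percentile. Probes bind with different strength, so a level is compared between arrays and not between genes. To enter the test a probe had to be well above background on 3 or more arrays in 1 of the groups. Of the 34 genes, 31 were well above background on all 8 arrays, beside 22413 of the 25652 probes tested. Just inside that limit, bbs10 was well above background on 3 control and 2 finasteride arrays, where 1 clear spot of its 2 was enough. The genes with a probe that did not enter the test, bbs7, cfap70 and rsph10b, were well above background on 0 arrays. Among the 34, 9 were read from probes named xhyb, a name that may mark cross-hybridization (ift46, cfap73, cfap74, rsph14, spata18.2, spata48, ttll3, tuba1a and tuba1cl.2).

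**Figure D1:**
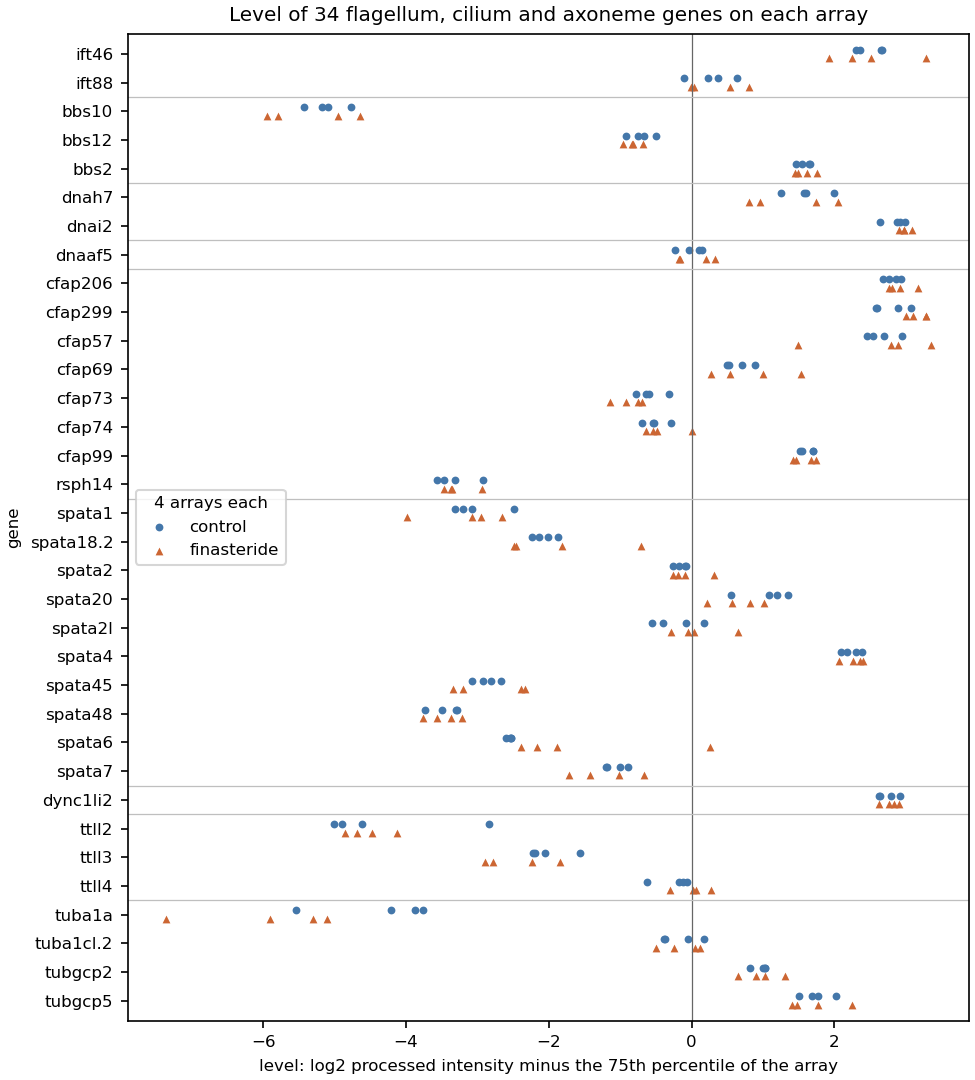
Level of each of the 34 genes on each array, in log2 units with 0 at the 75th percentile of the array. Circles are the 4 control arrays and triangles the 4 finasteride arrays, and lines separate the role groups. For 33 genes the groups overlap, and spata6 has 1 finasteride array at 0.25.

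The arrays differed in brightness. The 75th percentile of intensity ran from 719 on control 1 and 825 on control 4 to 1475 on control 2 and 1686 on control 3, and from 896 on finasteride 1 and 1115 on finasteride 4 to 1664 on finasteride 3 and 1798 on finasteride 2. Probes well above background made up 70.5% on finasteride 4 to 86.9% on finasteride 3. Each of the 2 slides held 2 control and 2 finasteride arrays, while each position on a slide held 1 group only, so that position and treatment cannot be told apart. Of the germ cell markers read as a check of the tissue, hormad1, a meiotic chromosome axis gene, was well above background on every array. So were piwil1, of the piRNA pathway, and the further markers tex15 and dnd1. The synaptonemal complex gene sycp3, read from an xhyb probe, was well above background on none. The markers read included no list for spermatids, so the presence of spermatids in this juvenile tissue was not shown.

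Across the 34 genes, finasteride and control testis could not be told apart. None passed the threshold of 0.05 on the adjusted p (limma, Benjamini-Hochberg over all probes, every adjusted p = 1.00), against 0 of 25652 probes in all (0%). At an unadjusted p under 0.05 there were 2 of 34 genes, cfap299 on the higher side and tuba1a on the lower, beside 4% of all probes (2.28% higher and 1.72% lower). Values were higher with finasteride for 19 genes and lower for 15, and 51.2% of all probes had higher values. The median log2 fold change was 0.010 over the 34 genes and 0.0063 over all probes. A difference of at least 1.5-fold was found for 2 genes, spata6 and tuba1a, beside 5.66% of probes. The groups did not overlap for 1 gene, spata6, beside 2.08% of probes. The 95% intervals, which are not adjusted for the number of probes, reached a median of 0.47 log2 units to either side of the estimate. Smaller differences were thus not resolved by 4 arrays a group. A larger difference was not enough to pass after adjustment, as spata6 at 1.00 and tuba1a at -1.57 did not. In bulk tissue, fewer cells of a type and less RNA per cell cannot be told apart.

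**Figure D2:**
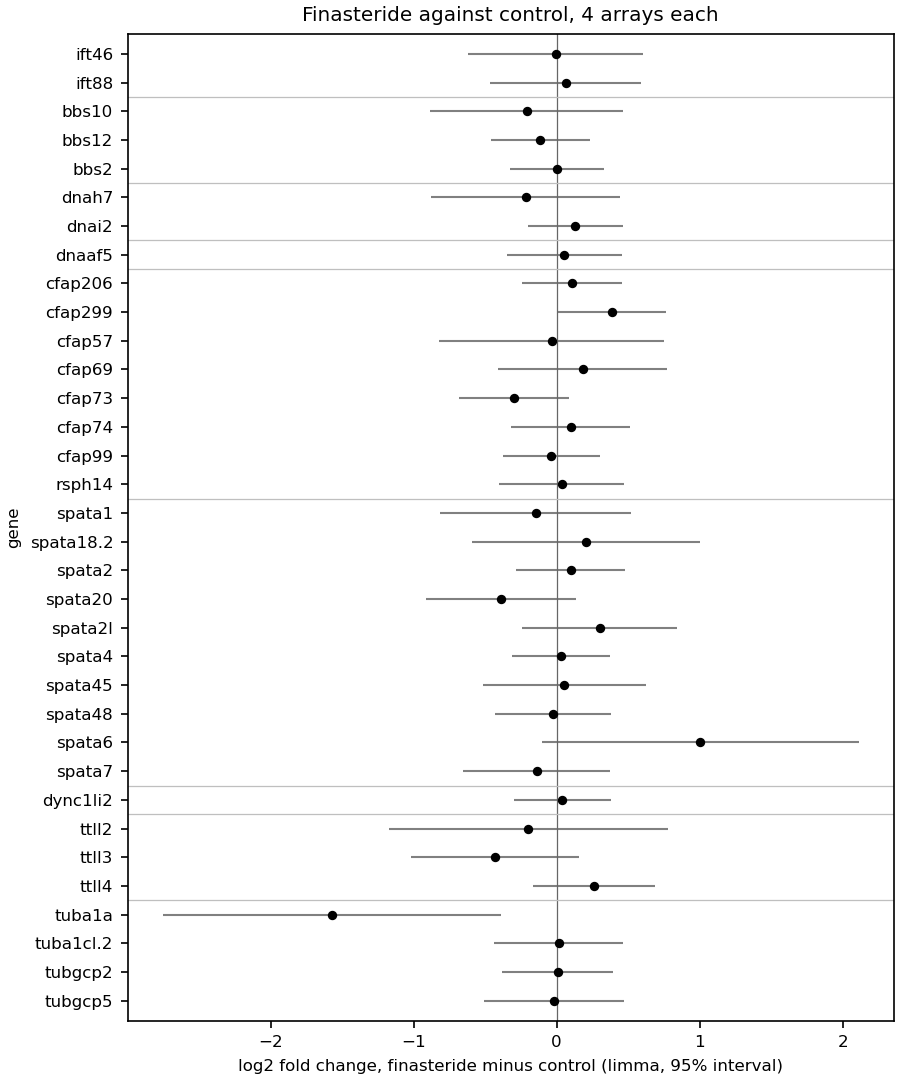
Log2 fold change of the 34 genes, finasteride minus control, from limma on 4 arrays a group, with 95% intervals. The intervals of cfap299 and tuba1a leave out 0 before adjustment, and no gene passed after it.

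Intraflagellar transport was represented by ift88 and ift46, both subunits of the complex that carries cargo towards the tip. The level of ift88 was 0.36, 0.23, 0.63 and -0.10 on control arrays 1 to 4 and -0.01, 0.54, 0.81 and 0.03 on finasteride arrays 1 to 4. The groups overlapped, and the means differed by 0.06 on the log2 scale (95% interval -0.47 to 0.59, adjusted p = 1.00 in limma). For ift46 the level was 2.65, 2.31, 2.36 and 2.67 on control arrays and 3.28, 2.24, 1.92 and 2.51 on finasteride arrays. Finasteride 1 was the highest of all arrays and finasteride 3 the lowest, the opposite order to ift88, and the means differed by -0.01 (-0.62 to 0.60).

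The BBSome was read by bbs2, one of its subunits, and by bbs12 and bbs10, chaperonin-like proteins that help to assemble it. The level of bbs2 was 1.58 ± 0.092 in controls and 1.58 ± 0.14 with finasteride (SD, n = 4 each), a log2 fold change of 0.003 (-0.33 to 0.33). For bbs12 it was -0.71 ± 0.17 and -0.82 ± 0.11 (SD, n = 4 each), with -0.12 (-0.46 to 0.23). The dim probe of bbs10 stood at -5.18, -5.43, -4.78 and -5.09 in controls and at -5.94, -4.95, -4.64 and -5.79 with finasteride, with -0.21 (-0.88 to 0.46). Both ends of its range lay in the finasteride group. This gene entered the test through the control group alone, being well above background on 3 control and 2 finasteride arrays. Its finasteride level is partly unmeasured, so its lower value is no result, here or among the 15 genes with lower values.

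Of the axonemal dyneins, dnah7 encodes a heavy chain of the inner arms. Its level was 1.57, 1.61, 2.00 and 1.25 on control arrays 1 to 4 and 0.81, 1.74, 2.05 and 0.96 on finasteride arrays 1 to 4. Finasteride 1 and 4 lay below every control and finasteride 3 above every control, so that the mean difference of -0.22 (-0.88 to 0.45) was smaller than the spread within the finasteride group (SD 0.60, n = 4). The assembly factor gene dnaaf5 had 0.05 (-0.35 to 0.45).

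The outer arm intermediate chain gene dnai2 was the one gene among the 34 with more than 1 probe, 14 in all. Its brightest probe stood at 2.92, 2.88, 2.99 and 2.63 in controls and at 2.98, 2.90, 2.98 and 3.08 with finasteride, a log2 fold change of 0.13 (-0.20 to 0.46). Over the 14 probes the log2 fold change ran from 0.08 to 0.18, with a lowest unadjusted p of 0.35 in limma. Among them, 11 probes share one name with a running number. On a single array these 11 differed with an SD of 0.033 to 0.069, which holds the error between spots of 1 array and not that between arrays. Their mean was -0.03, -0.06, 0.30 and -0.29 on control arrays 1 to 4 and 0.05, -0.0002, 0.51 and -0.13 on finasteride arrays 1 to 4. Control 3 was the highest control and control 4 the lowest on 14 of 14 probes. Finasteride 3 was the highest finasteride array on 13 of 14 probes, all but the brightest, which was the one taken for the gene. On the 11 copies finasteride 3 lay 0.48 to 0.61 above the mean of the other finasteride arrays.

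**Figure D3:**
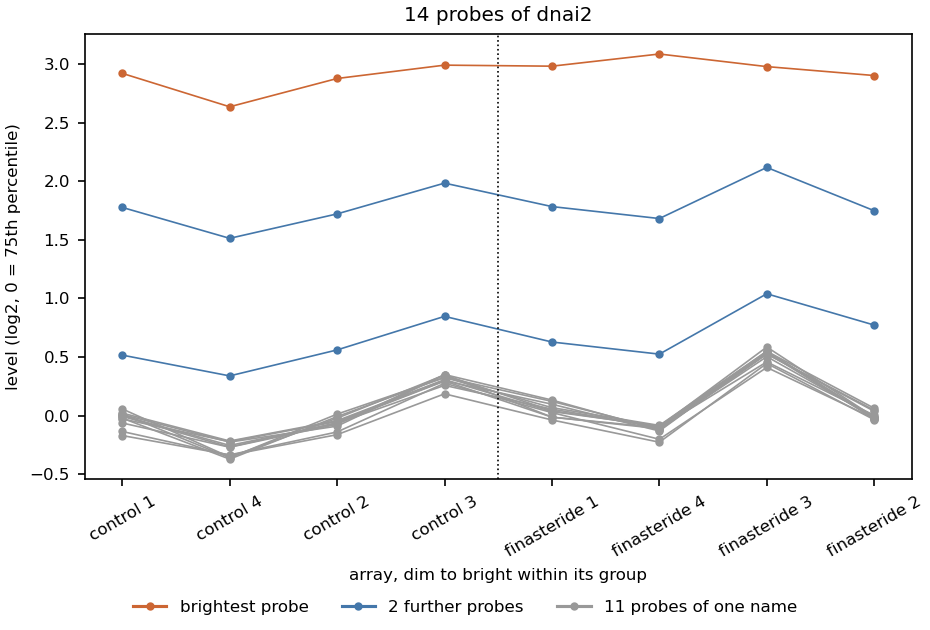
Level of the 14 probes of dnai2 on each array (log2, 0 at the 75th percentile), with arrays ordered from dim to bright within each group. Control 3 is the highest control on every probe, and finasteride 3 is the highest finasteride array on 13 probes but not on the brightest.

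The cilia and flagella associated and radial spoke genes numbered 8, of which 5 had higher and 3 lower values, with a median log2 fold change of 0.07. The gene cfap299 stood at 2.60, 2.89, 2.58 and 3.08 in controls and at 3.00, 3.29, 3.11 and 3.29 with finasteride. Control 4 lay among the finasteride arrays, and finasteride exceeded control by a log2 fold change of 0.38 (0.001 to 0.77; limma, unadjusted p = 0.049 and adjusted p = 1.00). It was 0.45 within slide 1 and 0.32 within slide 2. The unadjusted limma p of cfap299 was 0.062 with quantile normalization, 0.056 with the authors' deposited table, 0.060 without the filter and 0.069 with slide as a block. It was 0.041 with median scaling and 0.045 over probes well above background on all 8 arrays. The gene cfap73, whose counterpart in green algae belongs to a complex that regulates inner arm dyneins, stood at -0.32, -0.63, -0.59 and -0.78 in controls and at -0.70, -0.75, -1.14 and -0.92 with finasteride. Finasteride 1 and 2 lay within the control range, and the log2 fold change was -0.30 (-0.68 to 0.08).

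Other genes of this group differed little between the means. Radial spoke gene rsph14 had a log2 fold change of 0.03 (-0.41 to 0.47), cfap74, of the central pair apparatus, had 0.10 (-0.32 to 0.51), and cfap99 had -0.04 (-0.37 to 0.30). For cfap206, which in ciliates helps to anchor a radial spoke, it was 0.11 (-0.24 to 0.46), from 2.81 ± 0.11 in controls to 2.92 ± 0.18 with finasteride (SD, n = 4 each). The SD in controls was 0.097 for cfap99, 0.11 for cfap206, 0.17 for cfap74 and 0.29 for rsph14 (n = 4 each).

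Among these genes cfap57 and cfap69 varied widely within the finasteride group, which was noticed after their values were seen. The inner arm regulator gene cfap57 stood at 2.55, 2.70, 2.95 and 2.46 in controls and at 1.49, 2.89, 3.35 and 2.79 with finasteride. Finasteride 1 was the lowest and finasteride 3 the highest of all arrays, 1.86 apart on the log2 scale, while the group means differed by -0.04 (-0.82 to 0.75). The central apparatus gene cfap69, which male mice need for a normal sperm tail, stood at 0.52, 0.89, 0.71 and 0.49 in controls and at 0.28, 1.00, 1.53 and 0.54 with finasteride. It had the same lowest and highest array as cfap57, and a log2 fold change of 0.18 (-0.41 to 0.77). Without finasteride 1 the log2 fold change of cfap57 was 0.34 (-0.11 to 0.80), and without finasteride 3 it was -0.28 (-1.04 to 0.49).

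The spermatogenesis associated genes numbered 10, with 6 higher and 4 lower values and a median log2 fold change of 0.04. The gene spata6, which mouse spermatids need to join the sperm head to the tail, stood at -2.60, -2.54, -2.54 and -2.53 in controls and at -2.16, -2.39, 0.25 and -1.89 with finasteride. Every finasteride array lay above every control. Finasteride 3 alone was more than 2 log2 units above the others, and the SD was 0.032 in controls against 1.22 with finasteride (n = 4 each). In limma the means differed by 1.00 (log2, -0.11 to 2.11, unadjusted p = 0.071, adjusted p = 1.00). It was 0.40 (0.02 to 0.79, adjusted p = 0.987) without finasteride 3, 1.75 within slide 1, which held finasteride 3, and 0.26 within slide 2.

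The gene spata20, which encodes a thioredoxin-like protein, stood at 1.35, 1.08, 0.55 and 1.2 in controls and at 1.02, 0.82, 0.21 and 0.57 with finasteride. Control 3 and finasteride 3 were the lowest of their groups, the groups overlapped, and the log2 fold change was -0.39 (-0.91 to 0.13). It was -0.82 within slide 1 and 0.04 within slide 2. The gene spata4 was steady on all arrays, at 2.24 ± 0.13 in controls and 2.27 ± 0.15 with finasteride (SD, n = 4 each).

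The other spermatogenesis associated genes had log2 fold changes between -0.15 and 0.30, each with an interval that held 0. They were spata1, spata7 (in mammals a protein of the photoreceptor cilium), spata45, spata48 (a counterpart of a mammalian sperm microtubule protein), spata2, spata2l and spata18.2. For spata18.2, read from an xhyb probe, finasteride 2 stood at -0.71 and the other 7 arrays between -2.48 and -1.81. For spata7 finasteride 1 was the lowest array at -1.71 and finasteride 3 the highest at -0.67. For spata45 the order was turned, with finasteride 1 highest at -2.34 and finasteride 3 lowest at -3.34.

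The remaining genes were the tubulin modifiers, the tubulins and their nucleating complex, and the cytoplasmic motor. The enzyme gene ttll3, which adds glycine to tubulin of cilia, stood at -2.05, -2.23, -1.56 and -2.19 in controls and at -2.89, -2.23, -1.85 and -2.78 with finasteride. Finasteride 1 and 4 lay well below every control, finasteride 2 lay level with the lowest control and finasteride 3 among the controls, and the log2 fold change was -0.43 (-1.02 to 0.16). The glutamylase gene ttll4 stood at -0.17, -0.13, -0.06 and -0.63 in controls and at 0.02, 0.06, 0.28 and -0.31 with finasteride, with 0.26 (-0.17 to 0.69). Finasteride 1, 2 and 3 lay above every control and finasteride 4 below 3 of the controls. For ttll2 the value of control 3 was -2.84 and the other 7 arrays lay between -5.01 and -4.13.

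The alpha-tubulin gene tuba1a had the lowest unadjusted p of the 34 genes. Its dim xhyb probe stood at -4.21, -3.77, -5.54 and -3.88 in controls and at -5.30, -5.90, -5.11 and -7.36 with finasteride. It was well above background on 4 control arrays and 3 finasteride arrays. Control 3 lay among the finasteride arrays, and limma gave a difference of -1.57 (log2, -2.75 to -0.39, unadjusted p = 0.015, adjusted p = 1.00). The value was -2.25 on slide 1 alone, -0.89 on slide 2 alone and -1.09 when finasteride 4 was left out. It turned to 0.58 (-1.79 to 2.94) with normexp background correction. In that setting 26 of the 34 genes had higher values, and the median log2 fold change of all probes was 0.23. The second alpha-tubulin gene, tuba1cl.2, had 0.01 (-0.44 to 0.46).

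The microtubule nucleation genes tubgcp5 and tubgcp2 had log2 fold changes of -0.02 (-0.51 to 0.47) and 0.01 (-0.38 to 0.40). The motor gene dync1li2, a light intermediate chain of cytoplasmic dynein, stood at 2.74 ± 0.14 in controls and 2.78 ± 0.12 with finasteride (SD, n = 4 each), with 0.04 (-0.30 to 0.38).

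The larger differences in these genes lay between arrays of 1 group, and these comparisons were chosen after the values were seen. The spread was wider on finasteride than on control arrays for 26 of 34 genes (76.5%), beside 71.2% of all probes. The SD had a median of 0.19 among controls and 0.30 with finasteride for these genes, and of 0.23 and 0.35 for all probes. Finasteride 3 stood at least 0.75 above finasteride 1 for 10 of 34 genes (29.4%), beside 15.2% of all probes. These were spata6, cfap57, spata1, bbs10, cfap69, dnah7, spata7, ttll3, ift88 and tubgcp5. Of these, bbs10 was well above background on 2 finasteride arrays only, so its difference may rest on signal near background. Finasteride 3 stood at least 0.75 below finasteride 1 for 3 genes, ift46, spata45 and spata20 (8.82%), beside 11.2% of probes.

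The same arrays differed in brightness. In both groups, the 2 brighter arrays had a higher mean level than the 2 dimmer arrays for 16 of 34 genes (47.1%), beside 26.5% of probes, and a lower one for 7 (20.6%), beside 30.1%. For dnah7 the brighter arrays lay 0.39 above the dimmer ones in controls and 1.01 above with finasteride, for cfap57 0.32 and 0.98, for cfap69 0.29 and 0.86, and for ift88 0.30 and 0.66. For ift46 they lay lower, by -0.32 and -0.81, and for spata45 by -0.25 and -0.91. For spata6 and bbs10 the brighter and dimmer controls were nearly level, at 0.03 apart for each, while the finasteride arrays differed by 0.96 and 1.07. The finasteride difference of bbs10 includes arrays on which it was not well above background.

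With brightness as a covariate beside treatment, a slope on brightness was found at an unadjusted p under 0.05 for 6 of 34 genes (dnah7, ift46, spata45, cfap57, cfap69 and spata7, 17.6%), beside 6.74% of probes. None passed after adjustment (limma, lowest adjusted p = 0.691), as for all probes (0%). Per doubling of brightness the slope was 0.68 for dnah7, 0.73 for cfap57, 0.54 for cfap69, 0.47 for spata7, -0.60 for ift46 and -0.53 for spata45. Treatment with brightness in the fit had an unadjusted p under 0.05 for 2 genes, tuba1a at -1.50 (-2.82 to -0.19) and ttll3 at -0.56 (-1.08 to -0.04), beside 3.9% of probes. None passed after adjustment (limma, adjusted p = 1.00 for both). For spata6 the log2 fold change in that fit was 0.91 (-0.31 to 2.12). What part brightness had in the order of the arrays was not tested.

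**Figure D4:**
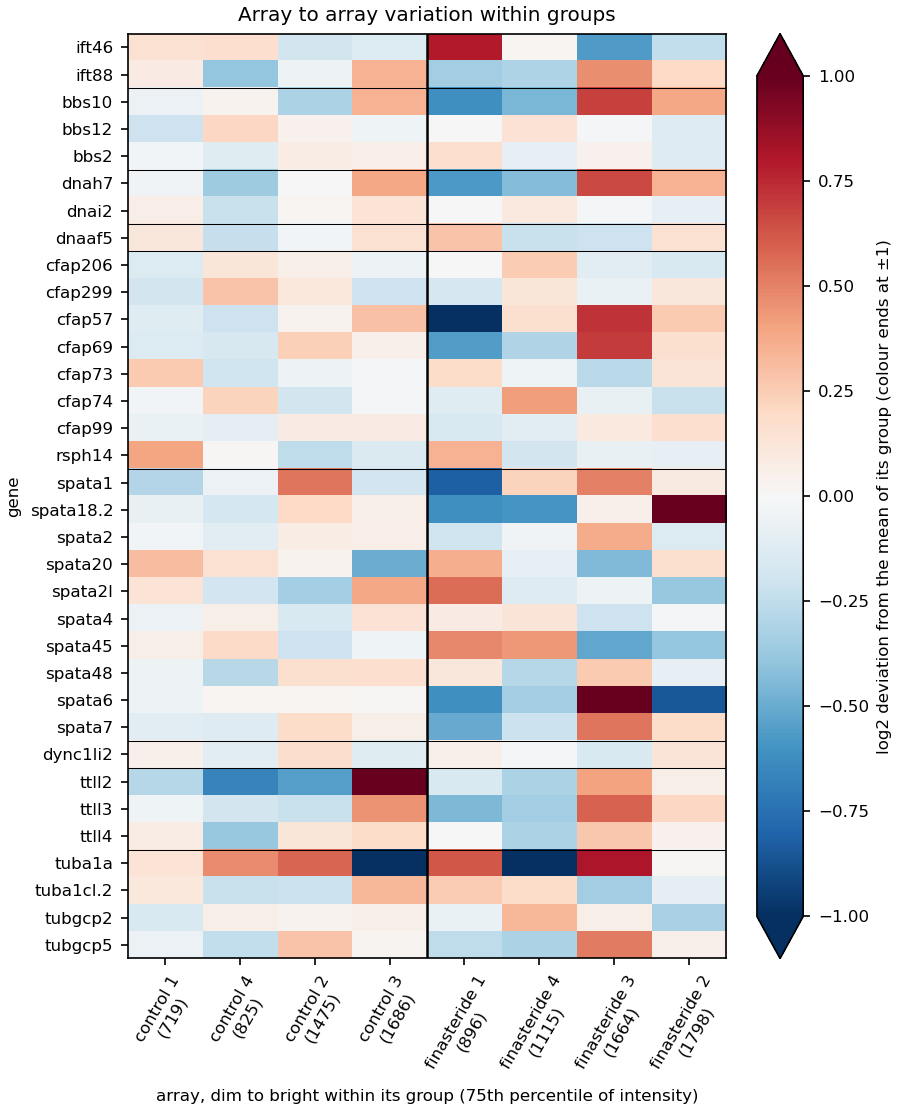
Deviation of each of the 34 genes from the mean of its own group, in log2 units, on arrays ordered from dim to bright within each group. The number under an array is its 75th percentile of intensity, and colours end at ±1. Finasteride 1 is low and finasteride 3 high for dnah7, cfap57, cfap69, spata7 and ttll3, and the order is turned for ift46, spata45 and spata20.

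Other genes of the cilium were read from 7 lists that the symbol rule does not reach. Over 84 such genes 37 had higher and 47 lower values, and 51.2% of all probes had higher values. The median log2 fold change of the 84 was -0.04, with a range from -0.36 to 0.39. At an unadjusted p under 0.05 there were 0 of 84 in limma, beside 4% of all probes, and the groups did not overlap for 2, arl6 and armc2, beside 2.08%. Of 9 transcription factors of ciliated and germ cells 4 had higher values. One of these 4, gmnc, was well above background on 0 control and 3 finasteride arrays. It entered through the finasteride group alone and its control level is unmeasured, so its higher value is no result, here or among the 37. The lowest p among the 9 belonged to myb at -0.18 (-0.53 to 0.16). Next came crem, of a regulator that mouse spermatids need, at -0.27 (-0.84 to 0.29). The gene mybl1, of a regulator of meiosis in male mice, had -0.27 (-0.84 to 0.30).

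The regulator gene mcidas, which switches on multiciliated cell genes, stood at -0.71, 0.01, -2.53 and 0.02 in controls and at -0.98, -0.95, -0.21 and -2.52 with finasteride. Control 3 and finasteride 4 lay more than 1.5 log2 units below the rest, 1 array in each group. This gene and the next pair of genes outside the 34 were picked after their values were seen.

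Beside 51.2% of all probes, 4 of 16 further transport and BBSome genes had higher values, and 12 had lower ones. Their 3 genes of lowest p were tctex1d2, a dynein light chain gene, at 0.34 (-0.08 to 0.75), ttc21a, whose paralog is a retrograde transport subunit, at -0.32 (-0.73 to 0.08), and arl6, a small GTPase that recruits the BBSome, at -0.22 (-0.54 to 0.09). Of 19 further axoneme and assembly genes 11 had higher and 8 lower values. They included armc2, a gene of sperm tail assembly, at -0.19 (-0.52 to 0.14), mns1, of the microtubule lumen, at 0.21 (-0.17 to 0.58), and spef1, of the central pair, at 0.26 (-0.24 to 0.76). Of 23 transition zone and basal body genes 11 had higher values, of 10 tubulin folding and modification genes 6, of 4 dynein regulators 1, and of 3 sperm genes 0. The lowest p in the first of these belonged to nek2 at -0.17 and cep164 at -0.31, and in the second to tbcc at 0.24, pfdn1 at 0.20 and tbcb at 0.18. Of the dynein regulators they were dctn1 at -0.15, dctn6 at -0.15 and hook2 at -0.10, and the 3 sperm genes were septin7 at -0.15, akap14 at -0.11 and septin4 at -0.08.

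A wider finasteride than control spread was also seen for most of the 84 listed genes outside the 34, beside 71.2% of all probes. It was narrower for a minority, among them fbf1, efhb, tcte1 and ttc8. The axonemal gene iqub, whose counterpart is a radial spoke protein, stood at 2.24, 2.39, 2.49 and 1.99 in controls and at 1.01, 2.48, 2.63 and 2.23 with finasteride. The basal body gene ofd1 stood at -2.69, -2.18, -3.13 and -2.37 in controls and at -4.52, -2.02, -2.03 and -3.26 with finasteride. In both, finasteride 1 was the lowest array.

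Markers of 10 cell classes were read beside these values, over 27 genes tested. None passed after adjustment, and 4 (14.8%) had an unadjusted p under 0.05 in limma, beside 4% of all probes. The Sertoli gene krt18.2 had a log2 fold change of 0.69, and the other 4 Sertoli genes tested lay between -0.11 and 0.19. The epithelial gene slc12a3 had -0.74, and the other 4 genes tested of the list of multiciliated or other epithelium lay between -0.36 and 0.11. The endothelial gene sox17b.2 had 0.53, beside -0.13 for tek and -0.05 for tie1. The erythrocyte gene epb41 had 1.26. Its probe was well above background on 1 control and 4 finasteride arrays, so that its control level is mostly unmeasured. It entered through the finasteride group alone, so its higher value is no result, here or among the 4 (14.8%). The leukocyte gene cd74, among the 27, entered in the same way, on 1 control and 3 finasteride arrays. The other erythrocyte gene tested, slc4a1, had -0.72 (-2.47 to 1.03). For slc4a1, control 4 stood at -0.75, the other controls between -4.94 and -3.30, and the finasteride arrays between -4.67 and -3.53. The summed level of the 3 spermatocyte genes on a probe, as linear intensity over the 75th percentile, ran from 12.5 to 18.4 in controls and from 11.5 to 19.03 with finasteride. That sum was mostly hormad1, which had a log2 fold change of -0.06 (-0.52 to 0.39). For tex15 it was -0.69 (-1.71 to 0.33). Finasteride 1 stood at -1.95 for tex15, the other finasteride arrays between -0.11 and 0.35, and controls between 0.15 and 0.67. The summed level of the 7 multiciliated or other epithelium genes ran from 18.4 to 20.0 in controls and from 17.4 to 26.5 with finasteride, with cdh1 well above background on 0 arrays. For the 6 Sertoli genes it ran from 5.74 to 7.53 and from 5.82 to 8.32, and for the 3 Leydig genes from 1.07 to 2.03 and from 1.16 to 2.12. For the 5 erythrocyte genes, 3 of them well above background on 0 arrays, it ran from 0.072 to 0.63 and from 0.082 to 0.17. Their part in the values of the 34 genes was not tested.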

How the data were processed

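Per the file headers, the deposited spot intensity was made with Agilent Feature Extraction 10.7.1.1 in one colour. The authors' deposited table of log2 values matched a quantile normalization of log2 processed intensity to within 0.00104 (median 7.25 in each column) and served as an alternative. From the scanner files, control and outlier spots were left out, log2 spots of a probe averaged, and the 75th percentile of each array subtracted. The test was limma's moderated two-sided test (version 3.58.1, R 4.3.3) with treatment alone in the model, over 25652 of 32899 probes. Steps were tested on simulated arrays whose noise was drawn independently for each probe, without differences of brightness or slide between arrays.

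Probe accessions without versions gave a gene symbol for 4872 probes through the RefSeq table of UCB_Xtro_10.0, used for names only. Where several probes carried 1 symbol, the brightest stood for the gene. Genes named by rule were those at an unadjusted p under 0.05, the 2 of lowest p in each role group, the 3 of largest difference, the highest and lowest mean level, spata6, and up to 3 of lowest p in each further list. Others were named after their values were seen. Members, role groups and lists were chosen with earlier results of these data known. Same-numbered arrays deviated together with correlations of 0.30, 0.36, -0.057 and -0.033 for numbers 1 to 4. For numbers 1 and 2 the 2 arrays were each other's best match, and for numbers 3 and 4 they were not. Numbers were not taken as pairs in the main test, and whether they mark pairs is not settled. One gene that the rule names in a further list is not reported here.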

Additional observations from a re-analysis of the deposited data

Results flagged for a closer look

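In 2 of 68 groups of 4 values, 1 array lay far from the other 3 by Dixon's criterion, where chance gives about 1 in 20 (3.4 here). For spata6, control 1 stood at -2.60 with the other controls between -2.54 and -2.53, a gap of a few hundredths of a log2 unit in a tight group. For tubgcp2, control 1 stood at 0.82 and the other controls between 1.00 and 1.03.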

How the results depend on the processing

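No gene of the 34 passed in any of 25 alternatives, with a lowest adjusted p of 0.510 under array weights. The median log2 fold change of the genes ran from -0.03 to 0.12. The covariate for brightness and the fits within brighter and dimmer arrays were chosen after seeing the data. Genes at an unadjusted p under 0.05 numbered 2 in the report and 0 with normexp, within slide 2, with specific probes alone and in the brighter arrays. They numbered 3 within slide 1, in the dimmer arrays and with median scaling, and 1 with quantile normalization, the deposited table, no filter, well above background on all 8 arrays and slide as a block. That 1 was cfap299 with well above background on all 8 arrays, where 31 genes were tested and tuba1a was not, and tuba1a in the others. With specific probes alone 25 genes were tested, tuba1a not among them. With 1 array left out there were 1 to 3. The share of all probes at that p ran from 0.0624% with normexp and 1.21% within slide 2 to 5.4% in the brighter arrays, 6.03% in the dimmer arrays and 6.24% with array weights. Probes past the threshold numbered 1 within slide 2 and 0 to 7 with 1 array left out (7 without control 3, and 2 each without finasteride 1, 2 or 4), with 0 of the 34 genes among them. Medians with 1 array left out ran from -0.03 to 0.03. With the replicate number as a block 3 genes had an unadjusted p under 0.05, with slide added 1, and 0 probes passed. With normexp the median of all probes was 0.23 and tuba1a turned to 0.58. Signs turned in 118 of 838 values over the 34 genes (13 genes with normexp, 14 in the brighter arrays), all but that of tuba1a from a value whose interval held 0. The causes were not tested. Signal near background limits bbs10, ttll2 and tuba1a.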
